A study of Mus musculus with 6 samples.

Results

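AP-1 is a family of dimeric transcription factors built from FOS and JUN proteins, and 10 genes of this family and of the immediate early response were described here: Fos, Fosb, Fosl1, Fosl2, Jun, Junb, Jund, Egr1, Atf3 and Klf4. They were taken by gene symbol, with no threshold on a measured value, though with earlier results of these data known. Each is 1 of the 25655 genes in the deposited table, and all 10 were among the 13941 genes with counts high enough to test. The cells were Comma-Dβ, a mouse mammary epithelial cell line. In the siID4 arm they had received a siGENOME pool of siRNAs against mouse Id4. In the NT arm they had received an ON-TARGETplus pool of non-targeting siRNAs. Both pools were used at 20 nM with Dharmafect-4, all cells were at passage 29, and harvest was 48 hr after transfection. All cells grew in DMEM/F12 with FBS, HEPES, insulin and epidermal growth factor. Each arm had 3 libraries of polyA RNA, numbered 1 to 3 and called biological replicates by the submitters. What a number shared by both arms marks, such as a day or a plate, is not given in the labels. The pools come from different siRNA product lines, so the target and the product line cannot be told apart.

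FOS proteins pair with JUN proteins through a leucine zipper, and the dimers bind the AP-1 site TGACTCA, while JUN proteins also pair among themselves and with ATF proteins. Immediate early genes such as Fos and Egr1 are transcribed within minutes of a stimulus, without new protein synthesis, when ERK signalling acts on serum response factor and its ETS cofactors, and their RNAs and proteins are short lived. In mammary epithelium, epidermal growth factor is one such stimulus. ID4 is an inhibitor of basic helix-loop-helix factors, which it binds without contacting DNA.

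Libraries held 21701067 to 23062482 counts in the siID4 arm and 19216688 to 23095620 counts in the NT arm. Levels are given as CPM, counts-per-million of the library's total, with totals scaled by the trimmed mean of M values (TMM). Id4, the targeted gene, stood at 59.4, 62.2 and 48.2 CPM in siID4 libraries 1, 2 and 3, against 135, 114 and 118 CPM in NT libraries 1, 2 and 3, and fell by 1.11 on the log2 scale (SE 0.10, edgeR adjusted p = 8.65e-04). Epithelial keratins were present in both arms: Krt5 averaged 727 CPM in siID4 and 822 CPM in NT, and Krt8 74.7 CPM in siID4 and 87.8 CPM in NT. Epithelial markers also moved between the arms: of 6 basal markers Acta2, Trp63 and Snai2 rose and Itgb4 fell, of 8 luminal markers Gata3 rose, and Epcam, at 186 CPM in siID4 and 222 CPM in NT, fell by 0.25 on the log2 scale (edgeR adjusted p = 0.0211). Over all tested genes 4.62% rose and 4.93% fell. With 1 library left out, Acta2, Trp63 and Snai2 were each called in 2 of 6 fits, Itgb4 in 1 and Gata3 in 4. The summed level of 7 endothelial markers lay between 1.49 and 1.94 CPM in siID4 and between 0.626 and 1.06 CPM in NT, with Tie1 at 0 in every library. Leukocyte markers summed to between 3.439 and 3.90 CPM in siID4 and between 3.03 and 3.16 CPM in NT, and Ptprc had at most 2 counts in a library. A list of 12 genes typical of fibroblasts had a sum between 4831 and 5548 CPM in siID4 and between 3413 and 4027 CPM in NT. Most of it came from Col1a1, Col1a2 and Col3a1, with means of 1816, 1419 and 1140 CPM in siID4. Cxcl12 averaged 401 CPM in siID4 and 250 CPM in NT, and Pdgfrb 327 CPM in siID4 and 243 CPM in NT. Dcn, Pdgfra and Fbln1 averaged 49.1, 36.3 and 25.4 CPM in siID4, against 62.6, 56.0 and 27.5 CPM in NT. The rest of the list was low in both arms: Fap averaged 3.27 CPM in siID4 and 2.17 CPM in NT. Mfap5 averaged 1.95 CPM in siID4 and 1.42 CPM in NT, and Thy1 0.792 CPM in siID4 and 0.371 CPM in NT. Lum averaged 0.0599 CPM in siID4 and 0.0334 CPM in NT. Of the 11 tested genes on the list 4 rose and 1 fell. The part of these marker changes in the values below was not tested.

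None of the 10 genes passed the test between the arms. With edgeR's quasi-likelihood test, called at an adjusted p under 0.05 over all 13941 genes, 0 of 10 were called, where 9.55% of all genes were. At an unadjusted p under 0.05 there were 2, Fosl1 and Fosl2. DESeq2 called 1, Fosl1, which was lower, and limma-voom called 0. Here and below, no share of all genes is given for counts at an unadjusted p. The same holds for counts with DESeq2 or limma-voom without the block. Such counts therefore cannot be read as more or fewer than over all genes. The median log2 fold change of the 10 was -0.05, and that of all tested genes 0.00. When the replicate number entered the same fit as a block, 1 gene rose (Fosl2) and 4 fell (Fosl1, Jun, Egr1 and Klf4), where 36.1% of all genes were called, 17.9% up and 18.3% down. With DESeq2 and the block, Fosl2 rose and Fosl1 and Egr1 fell, where 15.9% of all genes were called. Jun (adjusted p 0.160) and Klf4 (adjusted p 0.155) were not called in that DESeq2 fit. Only Fosl2 had arms that did not overlap, with siID4 higher, where 15.5% of all genes were separate in that direction and 30.9% in either. In bulk RNA, fewer cells expressing a gene and less RNA per cell cannot be told apart.

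**Figure D1:**
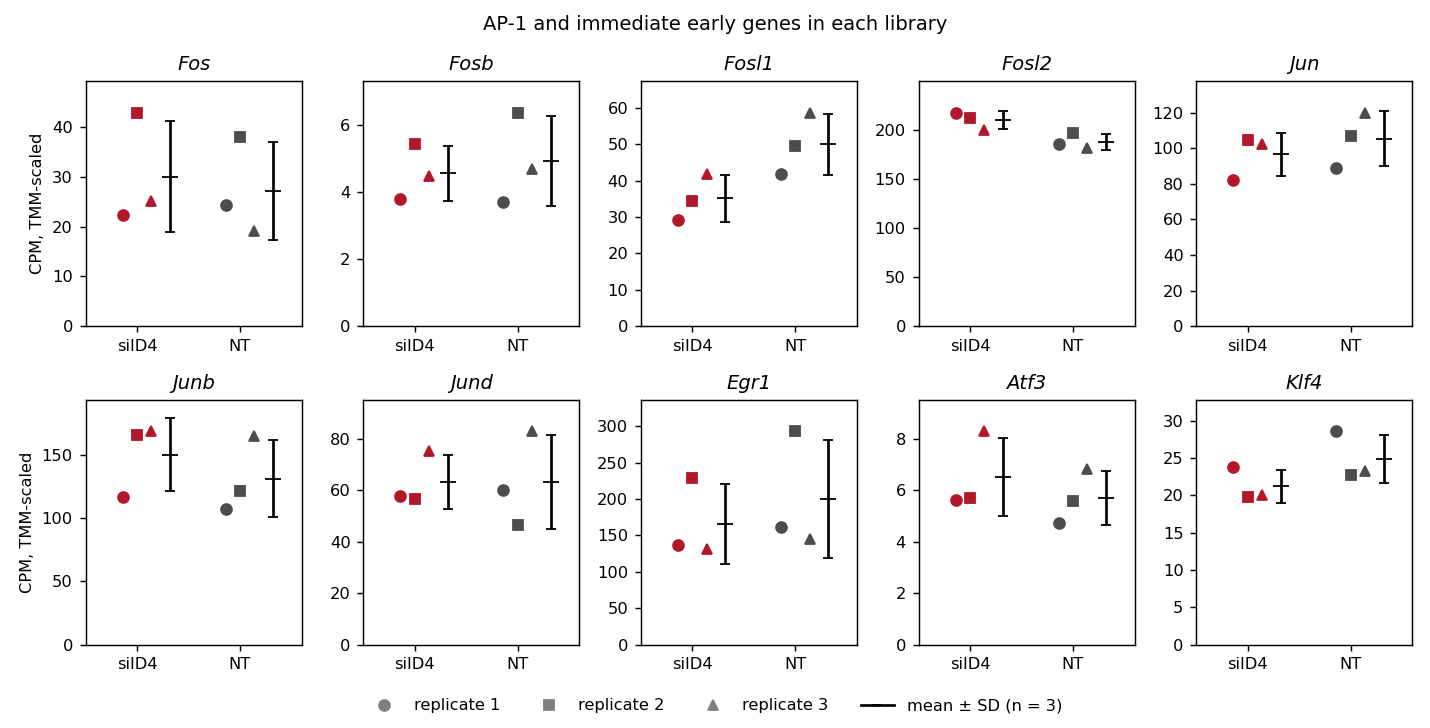
Level of each of the 10 genes in every library, in TMM-scaled CPM on a linear axis from 0, with siID4 in red and NT in grey, symbols for replicate numbers 1 to 3 and bars for the mean ± SD (n = 3). Fos and Egr1 are highest in library 2 of both arms, and Fosl2 shows the separate arms, at 200.0 to 217 CPM in siID4 and 181 to 197 CPM in NT.

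Fos, the inducible FOS protein from which the family takes its name, had 22.3, 42.9 and 25.2 CPM in siID4 libraries 1, 2 and 3, against 24.3, 38.2 and 19.04 CPM in NT libraries 1, 2 and 3. Library 2 was the highest in each arm, and the arms overlapped. The mean was 30.1 ± 11.2 CPM in siID4 and 27.2 ± 9.87 CPM in NT (SD, n = 3 each), a log2 fold change of 0.15 (SE 0.33, 95% interval -0.64 to 0.94, edgeR adjusted p = 0.828). With the block the estimate was again 0.15 with an SE of 0.08, and it was not called (edgeR adjusted p = 0.169). Leaving out 1 library turned its direction, with a log2 fold change of -0.19 without siID4 library 2 and of -0.05 without NT library 3. With the block, Fos was called higher without siID4 library 1 (edgeR adjusted p = 8.61e-04) or without NT library 1 (edgeR adjusted p = 0.00150). Within replicate numbers 1, 2 and 3, Fos in siID4 minus NT was -0.13, 0.17 and 0.40 on the log2 CPM scale.

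Fosb, the close relative of Fos, had the lowest mean TPM of the 10 genes, at 2.36 ± 0.441 TPM in siID4 and 2.46 ± 0.682 TPM in NT. It had 3.80, 5.43 and 4.47 CPM in siID4 libraries 1, 2 and 3, against 3.71, 6.37 and 4.70 CPM in NT libraries 1, 2 and 3. As with Fos, library 2 was the highest in both arms. The log2 fold change was -0.11 (SE 0.21, 95% interval -0.59 to 0.37, edgeR adjusted p = 0.806). It was 0.01 without siID4 library 1 and 0.11 without NT library 2.

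The bases just upstream of Fos and Fosb are shown because both genes were highest in replicate number 2 in each arm. Capitals mark TGACG, which reads as CGTCA where it lies on the other strand. TGACG is the core of the CRE, the element to which CREB and ATF proteins bind. Sequences are RefSeq's on GRCm38.p6, 250 bases up to the base before RefSeq's start, 5′ to 3′ on the gene's strand. The Fos window is chr12:85473640-85473889, plus strand, and the Fosb window is chr7:19310046-19310295, minus strand.
Fos: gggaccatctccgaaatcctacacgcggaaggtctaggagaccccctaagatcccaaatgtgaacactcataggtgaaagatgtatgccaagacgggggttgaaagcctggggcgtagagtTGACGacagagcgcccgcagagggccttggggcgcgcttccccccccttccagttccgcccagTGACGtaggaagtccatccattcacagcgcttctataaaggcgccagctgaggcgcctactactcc
Fosb: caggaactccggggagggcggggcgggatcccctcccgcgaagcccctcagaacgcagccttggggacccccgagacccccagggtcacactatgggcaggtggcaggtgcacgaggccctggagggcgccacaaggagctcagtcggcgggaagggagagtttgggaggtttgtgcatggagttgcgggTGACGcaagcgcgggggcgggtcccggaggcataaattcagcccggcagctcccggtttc

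Fos held TGACG in 2 places, at -129 to -125 and at -66 to -62 from the start, and Fosb held it once, at -60 to -56. Of the 10 genes, 8 had a window of this kind that was searched, all but Fosl1 and Egr1. TGACG was in 5 of these 8, as in 17.8% of all 32851 promoters. None of the 8 held the whole CRE, TGACGTCA (1.55% of all promoters), or the AP-1 site TGACTCA or TGAGTCA (4.46%), or a CArG box, the site of serum response factor (1.47%). Sites farther upstream than 250 bases were not searched, so these genes may hold such sites elsewhere. The windows follow RefSeq's starts. On GENCODE's annotation those of Fosl2 and Atf3 lie inside the gene, and that of Jund ends well before the gene begins. Both strands were searched for each motif, and TGACG lies within the whole CRE. E-boxes of the form CAGCTG, to which basic helix-loop-helix dimers bind, were in Fos, Junb, Jund and Klf4, or 4 of 8 windows, against 13.0% of all promoters. The E-box CAGGTG was in 1 of 8, Fosb, against 17.2%, and CACGTG in 1 of 8, Klf4, against 6.02%. The EGR site, GCGTGGGCG or GCGGGGGCG, was in Fosb, Fosl2 and Klf4, against 3.06% of all promoters. A match describes the letters of the window only.

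Fosl1, which encodes FRA1, a FOS protein without the transactivation domain of FOS, had the lowest unadjusted p of the 10. The gene lies at chr19:5447547-5455946 on the plus strand of GRCm38. Its levels were 29.1, 34.4 and 41.9 CPM in siID4 libraries 1, 2 and 3, against 41.7, 49.6 and 58.6 CPM in NT libraries 1, 2 and 3. Within every number the siID4 library was the lower, and 59.4% of all tested genes had 3 such differences of 1 sign. The arms overlapped only in that siID4 library 3 stood just above NT library 1. The mean was 35.1 ± 6.42 CPM in siID4 and 49.9 ± 8.45 CPM in NT (SD, n = 3 each), a ratio of 0.703. The log2 fold change was -0.51 (SE 0.16, 95% interval -0.87 to -0.15), with an unadjusted p of 0.0112 and an edgeR adjusted p of 0.0808. With the block Fosl1 fell by 0.51 (SE 0.05, edgeR adjusted p = 1.42e-09), and DESeq2 without the block called it too (adjusted p = 0.00735).

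The call on Fosl1 turned on single libraries. Without siID4 library 3 the log2 fold change was -0.66 and the edgeR adjusted p was 0.0349. Without NT library 1 these were -0.63 and 0.0419. Fosl1 was called in only these 2 of 6 fits, which leave out the libraries through which the arms overlapped. In the other fits the log2 fold change was -0.52 to -0.38, with edgeR adjusted p of 0.1725 to 0.2246. With all libraries and no filter on low counts the edgeR adjusted p was 0.275. The difference within numbers 1, 2 and 3 was -0.52, -0.53 and -0.48 on the log2 CPM scale, so the 3 differences lay closer together than the levels did. An exact permutation test of the 2 arms gave a two-sided p of 0.2, and 3 against 3 libraries cannot go below 0.1. The annotated Fosl1 overlaps Ccdc85b on the opposite strand, which stood at 3.47 CPM in siID4 and 4.14 CPM in NT.

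Fosl2, which encodes FRA2, had the highest mean TPM of the FOS genes in both arms. The gene lies at chr5:32135801-32157842 on the plus strand of GRCm38. It had 217, 212 and 200.0 CPM in siID4 libraries 1, 2 and 3, against 186, 197 and 181 CPM in NT libraries 1, 2 and 3. Every siID4 library was above every NT library. The mean was 209.9 ± 8.91 CPM in siID4 and 188 ± 8.24 CPM in NT (SD, n = 3 each), a ratio of 1.12. This was a log2 fold change of 0.16 (SE 0.05, 95% interval 0.04 to 0.27, edgeR adjusted p = 0.0863). With the block Fosl2 rose by 0.16 (SE 0.03, edgeR adjusted p = 6.91e-05). An exact permutation test gave a two-sided p of 0.1, the smallest that 3 against 3 allows.

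The ratio of Fosl2 to Fosl1 did not overlap between the arms. It joins the 2 of the 10 genes with an unadjusted edgeR p under 0.05, which moved in opposite directions. Fosl2 alone already had separate arms, so the ratio is no separate evidence. Among single genes, 30.9% of all tested had arms without overlap. Neither the ratio nor the shares below were tested. The TPM of Fosl2 over that of Fosl1 was 2.18, 1.80 and 1.39 in siID4 libraries 1, 2 and 3, against 1.30, 1.16 and 0.902 in NT libraries 1, 2 and 3. All 3 siID4 values lay above all 3 NT values. The TPM of all 4 FOS genes together was 144 ± 14.6 in siID4 and 146 ± 14.7 in NT, so the sum differed by less than its spread. Of that sum Fosl1 made up 25.3%, 24.6% and 33.2% in siID4 libraries 1, 2 and 3, against 34.6%, 33.9% and 44.5% in NT libraries 1, 2 and 3, without overlap. Fosl2 made up 48.5 ± 5.62% in siID4 and 41.5 ± 3.03% in NT, and Fos 22.1 ± 6.11% in siID4 and 19.2 ± 5.51% in NT, both with overlap between the arms. Within each number the Fosl2 share was the higher in siID4, at 55.0% in siID4 and 44.9% in NT for number 1, 44.4% in siID4 and 39.4% in NT for number 2, and 46.3% in siID4 and 40.1% in NT for number 3. These shares depend on the deposited gene lengths.

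Jun, the founding JUN protein, stood at 82.5, 105 and 103 CPM in siID4 libraries 1, 2 and 3, against 89.1, 107 and 120.0 CPM in NT libraries 1, 2 and 3. Library 1 was the lowest in each arm, and the arms overlapped. For Jun the log2 fold change was -0.13 (SE 0.12, 95% interval -0.41 to 0.16, edgeR adjusted p = 0.577). With the block Jun fell by 0.13 (SE 0.04, edgeR adjusted p = 0.00600), and this call was lost without siID4 library 3 (edgeR adjusted p = 0.224) or without NT library 3 (edgeR adjusted p = 0.213). Jun overlaps the antisense gene Junos, which stood at 0.882 CPM in siID4 and 1.24 CPM in NT.

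Junb, which can oppose JUN at some promoters and is induced with it, had the highest mean TPM of the 10 genes in both arms. It had 117, 165 and 168 CPM in siID4 libraries 1, 2 and 3, against 107, 121 and 165 CPM in NT libraries 1, 2 and 3. Library 1 was the lowest and library 3 the highest in each arm. For Junb the log2 fold change was 0.19 (SE 0.20, 95% interval -0.27 to 0.66, edgeR adjusted p = 0.599), and with the block edgeR did not call it (adjusted p = 0.371). limma-voom with the block did, as higher in siID4 (adjusted p = 0.0120), and so did edgeR with the block without siID4 library 3 (adjusted p = 0.0386). Junb overlaps Prdx2 on the opposite strand, which stood at 232 CPM in siID4 and 235 CPM in NT, and whether the counting used strand is not given in the sources used here.

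Jund, the JUN protein that is present in most resting cells, had similar means, 63.3 ± 10.6 CPM in siID4 and 63.1 ± 18.4 CPM in NT (SD, n = 3 each). Its libraries held 57.9, 56.4 and 75.5 CPM in siID4 and 60.0, 46.6 and 82.9 CPM in NT, in the order 1, 2 and 3. Library 3 was the highest and library 2 the lowest in each arm. For Jund the log2 fold change was 0.00 with a wide 95% interval of -0.51 to 0.51 (edgeR adjusted p = 1.00), and it was -0.15 without siID4 library 3, -0.04 without NT library 1 and -0.18 without NT library 2.

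The windows upstream of Jun and Junb are shown for comparison with those of Fos and Fosb, with the same core in capitals, and in Jun the variant TGACATCA. The Jun window is chr4:95052223-95052472 and the Junb window is chr8:84978749-84978998, both on the minus strand of GRCm38.p6.
Jun: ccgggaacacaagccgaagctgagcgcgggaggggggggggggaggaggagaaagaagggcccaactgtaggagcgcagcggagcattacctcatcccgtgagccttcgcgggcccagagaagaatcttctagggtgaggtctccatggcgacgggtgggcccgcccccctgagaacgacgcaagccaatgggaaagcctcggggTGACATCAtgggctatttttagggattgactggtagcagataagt
Junb: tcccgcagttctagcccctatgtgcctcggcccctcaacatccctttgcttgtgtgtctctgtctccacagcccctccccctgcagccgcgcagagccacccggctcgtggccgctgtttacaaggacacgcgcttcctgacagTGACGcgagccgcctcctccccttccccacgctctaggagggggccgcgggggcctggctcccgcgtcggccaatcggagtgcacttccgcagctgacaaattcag

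Jun held TGACATCA, a variant of the CRE to which JUN and ATF2 dimers bind, at -45 to -38. It was the only one of the 8 windows to hold it, against 2.93% of all promoters. Junb held TGACG at -106 to -102.

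Among the JUN genes the shares of Jun and Junb did not overlap between the arms, while that of Jund and the sum did. These shares were not tested, and without the block edgeR called neither Jun nor Junb. Among single genes, 30.9% of all tested had arms without overlap. The TPM of Jun, Junb and Jund together was 259 ± 41.1 in siID4 and 236 ± 48.1 in NT, with overlap. Junb made up 58.0%, 63.1% and 61.1% of it in siID4 libraries 1, 2 and 3, against 54.5%, 56.9% and 57.5% in NT libraries 1, 2 and 3, without overlap. Jun made up 22.7 ± 1.13% in siID4 and 26.4 ± 2.50% in NT, also without overlap, and Jund 16.6 ± 2.45% in siID4 and 17.3 ± 2.90% in NT, with overlap. Shares within a sum are not independent of each other.

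**Figure D2:**
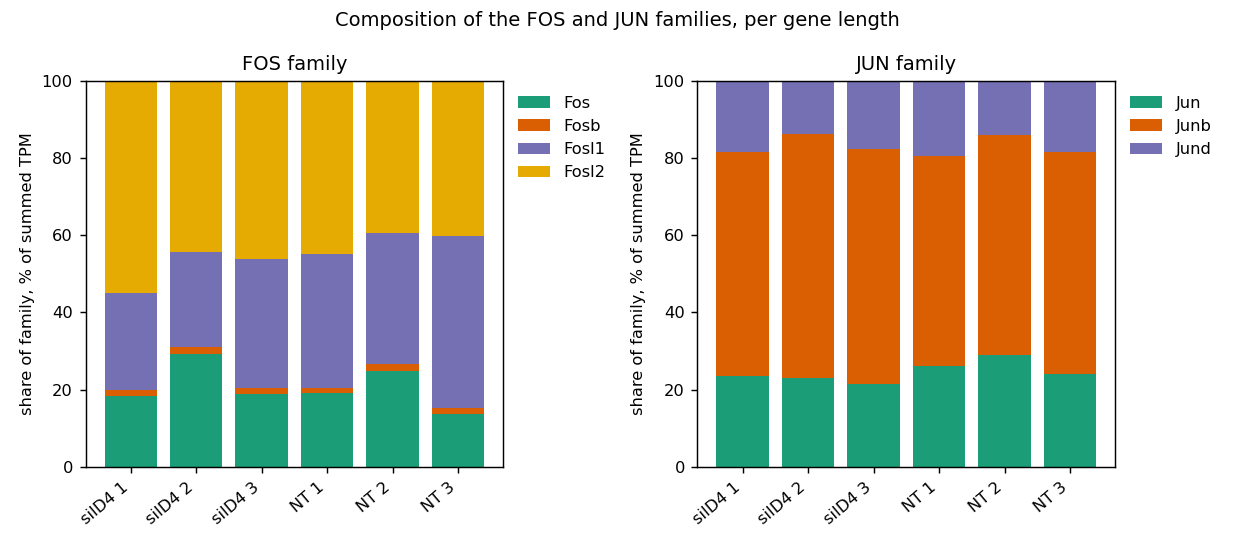
Stacked bars give the share of each gene in the summed TPM of its family, in percent, in the libraries of siID4 and NT, for the 4 FOS genes and the 3 JUN genes. Fosl1 takes 24.6% to 33.2% of the FOS sum in siID4 and 33.9% to 44.5% in NT, and Junb takes 58.0% to 63.1% of the JUN sum in siID4 and 54.5% to 57.5% in NT.

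Egr1, a zinc finger factor and one of the most readily induced immediate early genes, had 137, 229 and 131 CPM in siID4 libraries 1, 2 and 3, against 161, 293 and 145 CPM in NT libraries 1, 2 and 3. Library 2 was the highest in each arm, and the siID4 library was the lower within each number. Of all tested genes 59.4% had 3 differences of 1 sign within numbers. The mean was 165.5 ± 54.6 CPM in siID4 and 199.7 ± 81.2 CPM in NT (SD, n = 3 each), a log2 fold change of -0.27 (SE 0.35, 95% interval -1.15 to 0.61, edgeR adjusted p = 0.698). With the block Egr1 fell by 0.25 (SE 0.03, edgeR adjusted p = 1.89e-06), and within numbers 1, 2 and 3 the differences were -0.23, -0.36 and -0.15. Without NT library 2 and without the block, the log2 fold change was 0.11.

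Atf3, a stress-induced member of the ATF family that pairs with JUN proteins, stood at 5.61, 5.70 and 8.28 CPM in siID4 libraries 1, 2 and 3, against 4.71, 5.58 and 6.82 CPM in NT libraries 1, 2 and 3. Library 3 was the highest in each arm. The log2 fold change was 0.19 (SE 0.19, 95% interval -0.25 to 0.63, edgeR adjusted p = 0.593), and -0.02 without siID4 library 3. With the block it was not called (edgeR adjusted p = 0.190).

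Klf4, a zinc finger factor that restrains proliferation in many epithelia, had 23.8, 19.8 and 20.0 CPM in siID4 libraries 1, 2 and 3, against 28.5, 22.7 and 23.3 CPM in NT libraries 1, 2 and 3. Library 1 was the highest in each arm, and the siID4 library was the lower within each number. Differences of 1 sign within all 3 numbers were found in 59.4% of all tested genes. The log2 fold change was -0.23 (SE 0.11, 95% interval -0.48 to 0.02, edgeR adjusted p = 0.240). With the block Klf4 fell by 0.23 (SE 0.06, edgeR adjusted p = 0.00241).

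**Figure D3:**
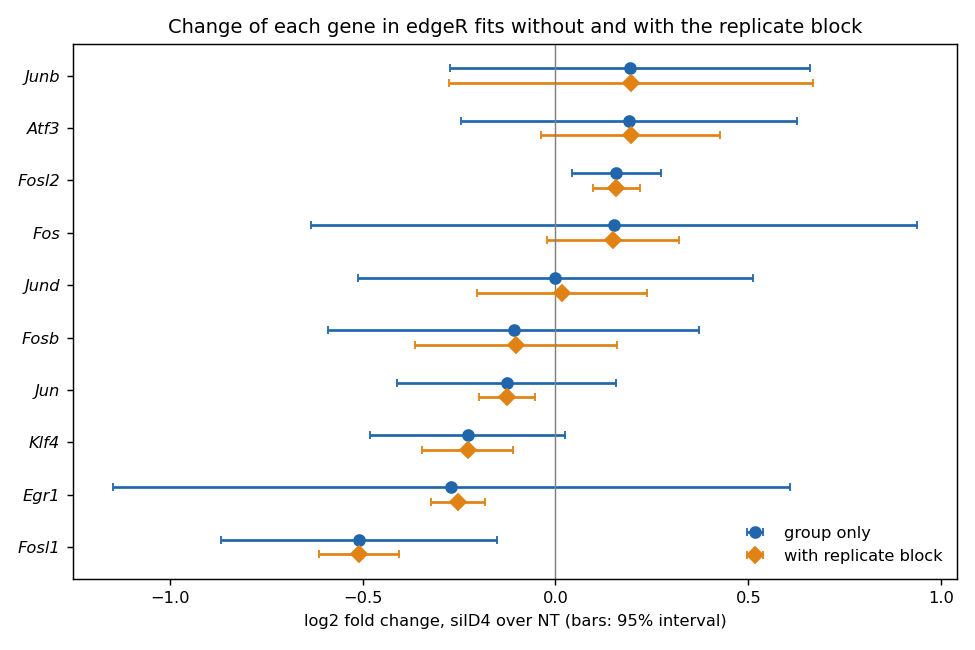
Log2 fold change of siID4 over NT for each of the 10 genes with its 95% interval, from the edgeR fit without and with the replicate block. The Fosl1 interval runs from -0.87 to -0.15 without the block and from -0.61 to -0.41 with it, and the Egr1 interval from -1.15 to 0.61 without it and from -0.32 to -0.18 with it.

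The order of the levels per length was much the same in both arms. In siID4 it ran Junb at 158 ± 30.4 TPM, Egr1 at 105 ± 35.6, Fosl2 at 69.4 ± 3.49, Jun at 58.7 ± 7.54, Jund at 42.5 ± 6.68, Fosl1 at 39.8 ± 6.99, Fos at 32.4 ± 12.3, Klf4 at 13.6 ± 1.45, Atf3 at 7.97 ± 1.77 and Fosb. In NT it ran Junb at 133 ± 30.1 TPM, Egr1 at 122 ± 50.4, Jun at 61.8 ± 9.03, Fosl2 at 60.1 ± 2.98, Fosl1 at 54.7 ± 9.15, Jund at 41.0 ± 11.7, Fos at 28.3 ± 10.4, Klf4 at 15.4 ± 1.98, Atf3 at 6.74 ± 1.23 and Fosb. Junb and Egr1 overlapped in each arm, as did Jun with its neighbour Jund in siID4 and with its neighbour Fosl2 in NT, and so did Jund and Fosl1 in each. Fosl1 also overlapped with Fos in siID4. In NT Fosl2 overlapped with Fosl1, and Jund with Fos. Klf4, Atf3 and Fosb each stood below the gene above them in both arms without overlap.

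Levels of most of the 10 genes differed among the replicate numbers. Whether numbers differed alike in both arms was not tested. An edgeR test of the number terms in the fit with both arms, added after the data were seen, called 8 of 10 genes, all but Fosl2 and Junb, where 30.5% of all genes were called. For 8 of 10 genes the same number was the highest in both arms, where this held for 57.4% of all genes. Number 2 was the highest in both arms for Fos, Fosb and Egr1 (12.1% of all genes), number 3 for Fosl1, Junb, Jund and Atf3 (21.8%), and number 1 for Klf4 (23.5%). In that fit number 2 was 0.80 above number 1 on the log2 scale for Egr1, whose joint test over all 3 numbers gave an edgeR adjusted p of 4.03e-14. Fos was also 0.80 above, with an edgeR adjusted p of 1.80e-05 in the joint test.

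**Figure D4:**
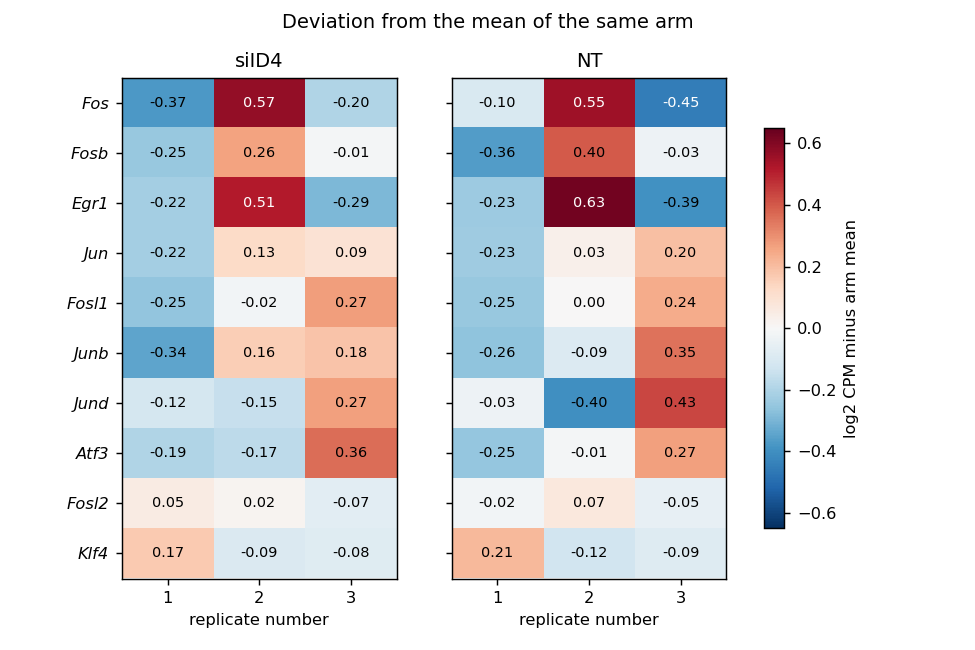
Log2 CPM of each gene minus the mean of its own arm, for replicate numbers 1 to 3 of siID4 on the left and NT on the right, red above and blue below the mean. Number 2 is high for Fos (0.57 in siID4 and 0.55 in NT) and Egr1 (0.51 in siID4 and 0.63 in NT), while number 3 is high for Fosl1 (0.27 in siID4 and 0.24 in NT).

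The genes differed in which library was high. Over the 6 libraries, after each arm's mean was taken off, Pearson's r was 0.969 between Fos and Egr1 and 0.834 between Fosb and Egr1. It was 0.956 between Jun and Junb, 0.946 between Fosl1 and Atf3, and -0.931 between Jun and Klf4. These values are descriptions over libraries that share their numbers and their scaling. The 3 genes whose log2 CPM over the 6 libraries was most like that of Fos were Wdr35 (r 0.981), Zfp169 (r 0.981) and Sfxn5 (r 0.977), among 10795 genes averaging 5 CPM or more. For Jun they were Trp53 (r 0.995), Srsf10 (r 0.995) and Telo2 (r 0.993).

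Other immediate early and feedback genes were also high in number 2. Egr2, a relative of Egr1, had 2.03, 3.49 and 1.62 CPM in siID4 libraries 1, 2 and 3, against 1.86, 3.24 and 1.54 CPM in NT libraries 1, 2 and 3. Zfp36, whose protein binds AU-rich RNA, had 33.4, 42.1 and 29.6 CPM in siID4 and 31.4, 38.9 and 29.6 CPM in NT, in the same order. Of 40 other immediate early genes tested, 14 were highest in number 2 in both arms, and of 19 feedback genes of the MAPK pathway 8 were, against 12.1% of all genes. These lists were chosen with earlier results known.

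All 10 genes held at least 1 ATTTA, the core of an AU-rich element through which RNAs are destabilised, in their 3′ UTR on GRCm38, as did 71.6% of the 12562 tested genes with a 3′ UTR. The longer TTATTTATT was in Fos and Fosl2, and in 8.32% of genes. These sites are shown with that nonamer in capitals, in 30 bases, from base 645 of the Fos 3′ UTR and base 3682 of the Fosl2 3′ UTR.
Fos: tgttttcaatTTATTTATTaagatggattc
Fosl2: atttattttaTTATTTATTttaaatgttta

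Serum response factor and its cofactors act upstream of many immediate early genes. Of 11 tested, 1 rose and 0 fell, where 4.62% of all genes rose and 4.93% fell, so the share called was near that of all genes. The median log2 fold change was 0.16. DESeq2 and limma-voom also called 1 up and 0 down, and library totals in place of TMM gave 4 up. At an unadjusted p under 0.05, 5 were higher and 1 lower, with no share of all genes given at that threshold. With the block 7 rose and 2 fell, where 17.9% of all genes rose and 18.3% fell. The 1 that rose was Mkl1, which encodes the actin-regulated coactivator MRTF-A, at 114 CPM in siID4 and 96.8 CPM in NT (log2 fold change 0.24, edgeR adjusted p = 0.0153), and it was called in 4 of 6 fits with 1 library left out. Srf itself had a log2 fold change of 0.17 (edgeR adjusted p = 0.276) and rose with the block (edgeR adjusted p = 0.00298). The ETS cofactors Elk1, Elk3 and Elk4 had log2 fold changes of 0.15, -0.10 and -0.25 and none was called, whereas with the block Elk1 rose and Elk3 and Elk4 fell.

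Of 36 tested genes of the MAPK cascades, 0 rose and 6 fell with edgeR, as with DESeq2 and limma-voom, while at an unadjusted p under 0.05 there were 2 higher and 10 lower. With the block 4 rose and 14 fell. With edgeR's adjusted p, 4.62% of all genes rose and 4.93% fell without the block, and 17.9% rose and 18.3% fell with it. For the unadjusted counts no share of all genes is given. The list had a median log2 fold change of -0.07. Map2k4, a kinase that activates JNK, the kinase of JUN, was at 67.4 CPM in siID4 and 85.5 CPM in NT (log2 fold change -0.34, edgeR adjusted p = 0.00901). Mapk14, the p38 alpha kinase, was at 118 CPM in siID4 and 137 CPM in NT (log2 fold change -0.22, edgeR adjusted p = 0.0157). With 1 library left out Map2k4 was called in 5 of 6 fits and Mapk14 in 4. Map3k5, Rps6ka3 and Erbb2 fell too. Mapk3, which encodes ERK1, had a log2 fold change of 0.10 that was called with the block only (edgeR adjusted p = 0.0151). Egfr, the receptor of the growth factor in the medium, had a log2 fold change of 0.02 (edgeR adjusted p = 0.874).

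None of the 19 feedback genes was called by edgeR without the block, where 9.55% of all genes were. Their median was -0.05. At an unadjusted p under 0.05 there were 0 higher and 3 lower, and DESeq2 called 1 lower and limma-voom 0. With the block 3 rose and 6 fell, where 17.9% of all genes rose and 18.3% fell. Dusp1 and Dusp6, phosphatases that switch off MAP kinases, had log2 fold changes of 0.19 and -0.10, and Spry2, an inhibitor of receptor signalling, one of -0.05. With the block Dusp1 rose (edgeR adjusted p = 0.00663) and Dusp6 fell (edgeR adjusted p = 0.0100).

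Among the 40 other immediate early genes 3 rose and 2 fell, with a median of -0.05, a share near the 9.55% called of all genes. DESeq2 called 5 higher and 4 lower, for which no share of all genes is given. With the block 10 rose and 11 fell, where 36.1% of all genes were called. Gadd45g, a growth arrest gene, was at 28.2 CPM in siID4 and 18.2 CPM in NT (log2 fold change 0.63, edgeR adjusted p = 0.00291). Cyr61, a matricellular protein, was at 325 CPM in siID4 and 225 CPM in NT (log2 fold change 0.53, edgeR adjusted p = 0.00989). Myc was at 170.4 CPM in siID4 and 142 CPM in NT (log2 fold change 0.26, edgeR adjusted p = 0.0148). With 1 library left out Gadd45g was called in all 6 fits, and Cyr61 and Myc in 5 of 6. Per2, a clock gene, was at 36.0 CPM in siID4 and 51.4 CPM in NT (log2 fold change -0.51, edgeR adjusted p = 0.0121). Nab1, a corepressor of EGR proteins, fell by 0.16 (edgeR adjusted p = 0.0407) and was called in 0 of 6 fits with 1 library left out, while Egr2, Egr3 and Nab2 had log2 fold changes of 0.12, -0.18 and -0.01 and were not called. Ier2 and Btg2 had log2 fold changes of -0.28 and 0.59, and passed with the block, Ier2 lower (edgeR adjusted p = 4.21e-06) and Btg2 higher (edgeR adjusted p = 2.29e-06). Nr4a1, a nuclear receptor gene, had a log2 fold change of 0.21 and rose with the block (edgeR adjusted p = 0.00887).

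Among 26 other basic leucine zipper genes 0 rose and 1 fell, as with DESeq2 and limma-voom, with a median of 0.06, where 4.62% of all genes rose and 4.93% fell. At an unadjusted p under 0.05 there were 4 higher and 3 lower, and with the block 7 rose and 5 fell, where 36.1% of all genes were called. The 1 that fell without the block was Nfe2l2, which encodes the oxidative stress factor NRF2, at 73.9 CPM in siID4 and 99.5 CPM in NT (log2 fold change -0.43, edgeR adjusted p = 0.00164). Jdp2 and Atf2, which pair with JUN, had log2 fold changes of 0.14 and 0.04. Of 12 other KLF genes edgeR, DESeq2 and limma-voom called 0 without the block, with a median of -0.05. Of all genes edgeR called 9.55% without the block. At an unadjusted p under 0.05 there were 0 higher and 2 lower. With the block 1 of the KLF genes rose and 4 fell, where 36.1% of all genes were called.

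Of 28 tested genes often described as AP-1 targets, 2 rose and 7 fell, with a median log2 fold change of -0.21, where 4.62% of all genes rose and 4.93% fell. With the block 10 rose and 14 fell, where 17.9% of all genes rose and 18.3% fell, and library totals in place of TMM gave 4 up and 7 down. Spp1, the secreted protein osteopontin, was at 2686 CPM in siID4 and 4067 CPM in NT (log2 fold change -0.60, edgeR adjusted p = 0.00227). The chemokine Ccl2 fell by 0.73 (edgeR adjusted p = 0.00310) and the cyclin Ccnd1 by 0.33 (edgeR adjusted p = 0.00657). These 3 were called in all 6 fits with 1 library left out. The others that fell were Vegfa, Areg, Krt6a and Timp1, and Itga5 rose. That list holds genes that many other factors also control. Of 17 genes of the ATF4 and ATF3 stress response 2 rose, Sesn2 and Vldlr, and 1 fell, Asns, with a median of 0.08. With the block 8 of the 17 rose and 4 fell, where 17.9% of all genes rose and 18.3% fell. Vldlr was called in 2 of 6 fits with 1 library left out (edgeR adjusted p up to 0.155), Sesn2 in 4 and Asns in 5. Of 14 genes of JUN protein turnover 0 rose and 1 fell, Usp28, with a log2 fold change of -0.26 (edgeR adjusted p = 0.0405), which was called in 0 of 6 fits with 1 library left out. DESeq2 called 0 of these 14 and limma-voom 1. With the block 2 of the 14 rose and 3 fell, where 36.1% of all genes were called.

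**Figure D5:**
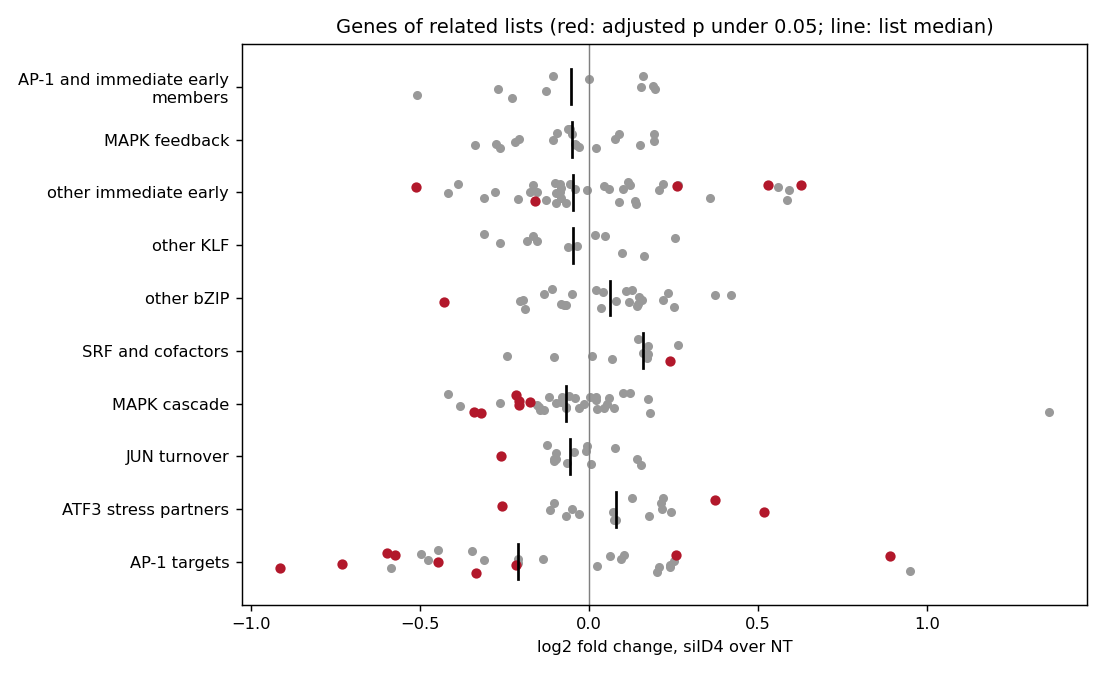
Log2 fold change of siID4 over NT for every tested gene in the lists of related genes, 1 point a gene, red where edgeR's adjusted p without the block is under 0.05, with a black line at the list's median. The MAPK cascade has 6 called genes, all lower in siID4, and the AP-1 target list has 2 called higher and 7 called lower.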

How the data were processed

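RNA was sequenced from 6 libraries made with a stranded mRNA kit, per the labels' protocols. Reads were handled with cutadapt, STAR and RSEM on mm10, per the submitters' processing notes. No version, annotation, strand setting or filter rule was given in the sources used here. For every gene the authors deposited RSEM expected counts in 1 table, with a gene length in another column. RSEM can share reads between similar genes.

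The expected counts were rounded to whole numbers and tested with edgeR 4.0.16 (TMM scaling, filterByExpr, robust quasi-likelihood F test, Benjamini-Hochberg adjustment over 13941 genes, R 4.3.3). The common biological coefficient of variation was 7.83%. TPM was computed from the counts and the deposited length. DESeq2 1.42.0, limma-voom (limma 3.58.1), other scalings, filters and prior counts, and leaving out each library were the alternatives. The edgeR fits were tested on simulated counts, with no such test of DESeq2 or limma-voom. In the simulations of siID4 against NT, without and with the block, the share of false genes among those called was above the nominal 0.05, so adjusted p-values near it are weaker evidence than they read.

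Libraries with the same number deviated together from their arm's mean, with correlations of 0.425, 0.142 and 0.381 for numbers 1, 2 and 3, against -0.370 to -0.027 for other pairs. Deviations sum to 0 within each arm, so the values for other pairs are not independent of those for the same number. This check therefore cannot settle whether the numbers pair the libraries, and the labels do not say. Results with the number as a block rest on such a pairing, and are given where they change a call.

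The members and lists were chosen with earlier results of these data known. Besides all members and Id4, the genes named are up to 4 called genes with the smallest adjusted p in each list, a set core of SRF, ERK and EGR genes, and the 3 genes most like Fos and Jun. Lists of genes past this rule, such as the rest of a list's called genes, were named after their values were seen. Some genes that this rule names are not reported here.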

Additional observations from a re-analysis of the deposited data

How the results depend on the processing

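With 3 libraries an arm, small differences cannot be told from the spread: the intervals of Fos, Jund and Egr1 span sizeable folds in both directions. The block alternatives to edgeR, and the test of number terms, were chosen after seeing the data. Scaling moved the median of all genes by at most 0.03 on the log2 scale.

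DESeq2 called 1 member lower, without the block. It called no other member. With the block 1 member rose and 4 fell, the related lists together had 50 up and 58 down, and all genes 2493 up and 2545 down, while the calls of the other 5 members did not change. Library totals in place of TMM gave 14 up in the related lists. With the block DESeq2 called Fosl2 higher and Fosl1 and Egr1 lower, where 15.9% of all genes were called. limma-voom with the block called Fosl2 and Junb higher, and Fosl1, Jun, Egr1 and Klf4 lower, where 34.6% of all genes were called. On the CPM scale Fosl2 took 75.13% of the FOS sum in siID4 and 69.73% in NT, and Junb 48.22% of the JUN sum in siID4 and 43.60% in NT.

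Leaving out 1 library gave 0 to 1 members down, 4 to 11 related genes up and 5 to 20 down, 221 to 686 of all genes up and 224 to 665 down. With the block it gave 1 to 2 members up and 3 to 4 down, and 7 to 9 members differed among numbers. Log2 fold changes that turned sign ranged from -0.19 to 0.47 for Fos, -0.27 to 0.11 for Fosb, -0.18 to 0.25 for Jund, -0.57 to 0.11 for Egr1, -0.018 to 0.34 for Atf3, -0.075 to 0.092 for Mkl2, -0.023 to 0.048 for Egfr, -0.11 to 0.015 for Spry2, -0.26 to 0.49 for Egr2, -0.046 to 0.028 for Nab2, -0.002 to 0.10 for Atf2, -0.078 to 0.20 for Zfp36, -0.004 to 0.06 for Wdr35, -0.033 to 0.088 for Zfp169 and -0.039 to 0.16 for Sfxn5. With DESeq2's size factors Jund was at -0.003, and Nab2 was at 0.022 with library totals and 0.004 with a mean of at least 5 CPM. The cause was not tested.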
